A study of Owenia fusiformis with 11 samples.

Results

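Chromatin accessibility was compared between the mature mitraria larva and the competent larva of the annelid Owenia fusiformis, in 4 of the 11 samples of the series. The unit described is the consensus peak, an interval of open chromatin that the study defined over its developmental stages and counted in every library. Of the 63732 consensus peaks, 61869 had a value above 0 in at least 1 of the 8 stage libraries used here and were tested, and 1863 were at 0 in all 8 and were dropped. Peaks that gained accessibility in the competent larva are called opening peaks, and those that lost it closing peaks. The mature mitraria larva was collected 27 h after fertilization (about 150 larvae per library) and the competent larva at 3 weeks (about 40 larvae per library). Gastrula embryos at 9 h (about 500 per library) and elongation embryos at 13 h (about 300 per library) provided the earlier reference levels. Each stage had 2 libraries, described by the study as biological replicates, and each library was made from about 50000 cells of pooled whole animals reared in artificial sea water, with the larvae fed on algae. No treatment or genetic change was applied, so a change in a peak and a change in the mix of cell types in the animal cannot be told apart. The assay, ATAC-seq, uses the Tn5 transposase to cut and tag DNA that is not packed away, so that reads pile up over open chromatin.

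The mitraria is the planktonic, feeding larva of oweniid annelids. It swims and feeds with cilia and carries little trunk when it begins to feed. The trunk of the future worm grows from a rudiment during larval life, and a larva is competent when that rudiment is ready for metamorphosis. Open chromatin marks promoters and distal regulatory elements. The comparison therefore asks which such elements are opened or closed while the larva prepares for metamorphosis, and whether the new state resembles that of the embryo. Genes are not named because no annotation in the coordinates of these peaks was used here, and peaks are given by identifier and by position on the scaffolds of the deposited table, whose genome build is not given in the sources used here.

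The libraries held approximately 7957246 to 44690916 reads in tested peaks, as recovered from the smallest steps between normalized values, and competent larva replicate 1 was the shallowest. Replicates correlated across tested peaks at r = 0.983 (mature larva) and 0.973 (competent larva), against 0.938 to 0.957 between libraries of the 2 stages. These correlations are across peaks, which are not independent replicates. The mature larva was sequenced on another instrument and at another centre than the competent larva, so stage and sequencing run cannot be told apart in the larval comparison. The gastrula replicates were themselves split between the same 2 instruments, although the sources used here do not say which replicate was which. The log2 difference of gastrula replicate 2 over replicate 1 had a median of 0.19 over opening peaks, 0.01 over closing peaks and 0.07 over all tested peaks. The part of the sequencing run in the larval calls was not tested.

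Accessibility changed widely between the larval stages. limma called 9478 of the 61869 tested peaks (15.3%) at a Benjamini-Hochberg adjusted p under 0.05. Of these, 4946 opened (7.99% of tested peaks) and 4532 closed (7.33% of tested peaks). Opening was the larger change per peak: the median log2 fold change was 1.05 for opening peaks and -0.81 for closing peaks, beside -0.08 for all tested peaks. The change exceeded 1 on the log2 scale in 54.6% of opening peaks and in 27.5% of closing peaks, and it exceeded 2 in 472 opening and 72 closing peaks. Over all tested peaks it exceeded 1 in 8.74% and exceeded 2 in 694 peaks (1.12%). Changes were larger at low levels. Median log2 fold changes were 2.25 and -1.36 for opening and closing peaks in the quintile with the lowest larval mean, and 0.89 and -0.69 in the highest. The smallest changes called were 0.45 for opening and -0.44 for closing. In all 9478 called peaks, both libraries of one larval stage lay above both of the other, as the test favours, compared with 59.7% of all tested peaks. The number of calls rested on having both replicates: it was 1152 with mature larva replicate 1 left out and 2043 with replicate 2 of that stage left out. Dropping competent larva replicate 1 gave 1729 calls, and dropping its replicate 2 gave 3931. The share of calls that opened was 74.5%, 70.6%, 56.9% and 54.9% in these 4 fits. With all consensus peaks kept in the fit the count was 4945, and with only the 4 larval libraries it was 4871. Each fit with 1 larval library left out leaves a stage with 1 library, which is then assumed to vary like the other stages. No called peak changed sign under any of these omissions.

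**Figure D1:**
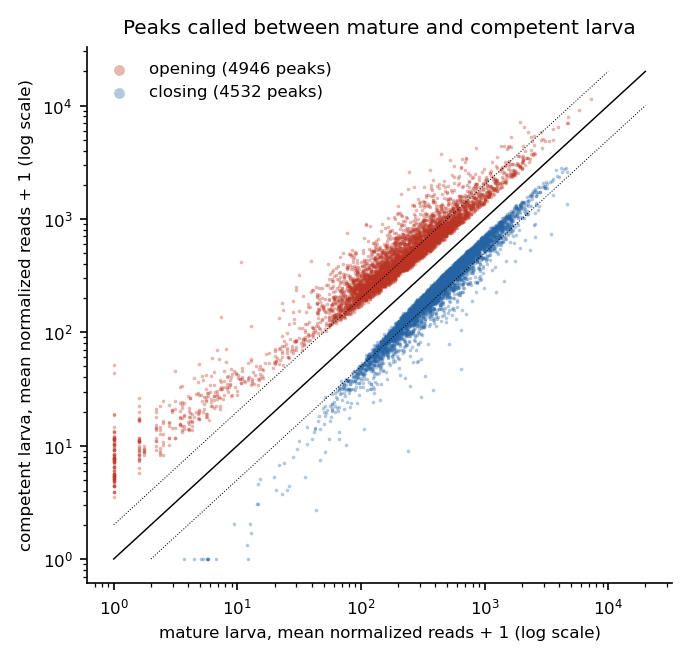
Mean normalized reads + 1 in the mature larva (x axis, log scale) and the competent larva (y axis, log scale) for the 9478 called peaks, 1 point per peak, with equality as a solid line and a change of 1 on the log2 scale as dotted lines. The 4946 opening peaks reach further from the line than the 4532 closing peaks, and the lower left corner, where levels are low, holds mostly opening peaks.

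Opening and closing peaks differed in their starting levels. In the mature larva libraries the median opening peak held 198 and 209 normalized reads, close to its level of 177 and 201 in the gastrula and 169 and 189 at elongation, and it held 452 and 423 in the competent larva. The median closing peak was already high in the embryo, with 392 and 395 normalized reads in the gastrula and 411 and 391 at elongation. It held 414 and 411 in the mature larva and fell to 225 and 235 in the competent larva. Over all tested peaks the medians stayed between 164 and 205 normalized reads in the 8 libraries. Per kilobase of peak, opening peaks had a median of 291 normalized reads in the mature and 620 in the competent larva, and closing peaks 481 and 265. Opening thus started from close to the median level of the tested peaks, whereas closing started well above it. The direction of the call favours this contrast, since the mature larva libraries enter both the call and the starting level.

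Among called peaks, the lowest levels were mostly on the opening side. A mean over the 4 larval libraries below 10 normalized reads was found in 180 opening and 18 closing peaks, and in 3768 of the 61869 tested peaks. At 0 in both mature larva libraries were 88 opening peaks and 1686 of all tested peaks. At 0 in both competent larva libraries were 10 closing peaks and 1314 of all tested peaks. At most 3 reads in every larval library lay behind 9 of the opening and 3 of the closing calls, so these rest on very little depth.

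Called peaks were wider than tested peaks at large, but not within every quintile of larval mean. The median width was 751 bp for opening peaks, 906 bp for closing peaks and 615 bp for all tested peaks. The share of peaks that closed grew through the quintiles of width, from 3.41% of peaks of 103 to 310 bp to 13.3% of peaks of 1143 to 7146 bp. The share that opened levelled off, from 4.19% in the narrowest quintile to 10.1% in the fourth and 9.92% in the widest. Width and level rise together, and within the quintile of peaks with the highest larval mean the median widths were 1206 bp for opening, 1443 bp for closing and 1384 bp for all peaks. In that quintile, 15.5% of peaks opened and 14.1% closed. Among its peaks of 749 to 1142 bp, 20.7% opened and 11.5% closed, while among those of 1143 bp and more 12.7% opened and 15.6% closed. The 29 narrowest peaks of that quintile (112 to 299 bp) opened in 13.8% and closed in 34.5% of cases. No test of these differences was run. The changes themselves were smaller in wider peaks, with median log2 fold changes of 0.87 and -0.69 in the widest quintile and 1.32 and -1.16 in the narrowest. Requiring a log2 fold change above 1 in size left median widths of 620 bp for opening and 545 bp for closing peaks. The order of the medians also turned without competent larva replicate 2, at 814 bp for opening and 784 bp for closing peaks.

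The individual peaks with the largest opening show different histories. OFUS_peak_53613 (scaffold 20, 3101384 to 3103157, 1774 bp wide) had 252 and 238 normalized reads in the mature larva, then 2532 and 2638 in the competent larva. Its gastrula values were 376 and 360 and its elongation values 217 and 301. The competent larva replicates nearly coincide and lie several-fold above every earlier library (log2 fold change 3.40 ± 0.17 SE, limma adjusted p = 4.4e-07).

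OFUS_peak_31976 (scaffold 9, 7441445 to 7442895, 1451 bp wide) behaved likewise at a still higher level, with 389 and 496 normalized reads in the mature larva, then 4097 and 3342 in the competent larva. The gastrula values of 310 and 413 overlapped those of the mature larva, and the elongation values of 240 and 334 lay below them (log2 fold change 3.07 ± 0.20 SE, limma adjusted p = 1.7e-06). OFUS_peak_37801 (scaffold 11, 18457080 to 18457411, 332 bp wide) was nearly silent before the competent larva. It held 29.4 and 7.71 normalized reads in the gastrula, 25.3 and 34.4 at elongation, 32.9 and 27.6 in the mature larva, then 296 and 342 in the competent larva (log2 fold change 3.36 ± 0.49 SE, limma adjusted p = 5.2e-04). Among peaks with a larval mean of at least 50 normalized reads, these 3 had the largest changes of the new opening class described further on. That class is set by level and does not mean that a site was closed in the embryo.

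OFUS_peak_36085 (scaffold 11, 1864914 to 1865788, 875 bp wide) had the largest change among peaks with a larval mean of at least 50 normalized reads, and its lowest level was in the mature larva. It fell from 76.3 and 77.2 normalized reads in the gastrula and 88.0 and 57.5 at elongation to 13.4 and 6.0 in the mature larva, and stood at 520 and 313 in the competent larva (log2 fold change 5.33 ± 0.40 SE, limma adjusted p = 3.6e-06). OFUS_peak_18167 (scaffold 5, 11908553 to 11908770, 218 bp wide) dipped in the same manner, with 64.9 and 61.6 in the gastrula, 25.4 and 22.1 at elongation, 3.01 and 9.66 in the mature larva, then 197 and 71.4 in the competent larva (log2 fold change 4.19 ± 0.53 SE, limma adjusted p = 2.2e-04). The replicates of this narrow peak spread widely in both larval stages without overlapping.

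OFUS_peak_26432 (scaffold 7, 16584153 to 16586326, 2174 bp wide) lost and regained its embryonic level. Both mature larva libraries held 11.9 and 12.0 normalized reads, against 135 and 92.3 in the competent larva, 73.3 and 177 in the gastrula and 100.2 and 173 at elongation (log2 fold change 3.12 ± 0.42 SE, limma adjusted p = 3.2e-04). The competent larva values fall inside the embryonic range. OFUS_peak_53262 (scaffold 19, 10120632 to 10120754), only 123 bp wide, rose from 35.8 and 40.8 normalized reads to 517 and 335 (log2 fold change 3.41 ± 0.34 SE, limma adjusted p = 3.1e-05). OFUS_peak_54567 (scaffold 21, 2877509 to 2878045, 537 bp wide) rose from 89.2 and 62.1 to 889 and 600.4 (log2 fold change 3.28 ± 0.71 SE, limma adjusted p = 0.0069), but its replicates disagreed in the embryo, with 261 and 54.2 in the gastrula and 63.8 and 462 at elongation. That call was lost whenever any 1 larval library was left out.

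Among closing peaks the largest change was at OFUS_peak_20255 (scaffold 5, 26035672 to 26035850, 179 bp wide), which held 285 and 190.1 normalized reads in the mature larva, then 7.20 and 8.79 in the competent larva (log2 fold change -4.71 ± 0.61 SE, limma adjusted p = 2.5e-04). It was open at elongation, with 272 and 517, and uneven in the gastrula, with 475 and 67.7. OFUS_peak_28258 (scaffold 8, 5049310 to 5049779, 470 bp wide) declined in steps. It had 743 and 451 normalized reads in the gastrula, 569 and 588 at elongation, 267 and 228 in the mature larva, then 23.9 and 41.2 in the competent larva (log2 fold change -2.93 ± 0.27 SE, limma adjusted p = 1.8e-05). The stages after elongation do not overlap.

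OFUS_peak_58954 (scaffold 25, 6189163 to 6189638, 476 bp wide) had 644 and 399 normalized reads in the gastrula, 486 and 444 at elongation, 352 and 303 in the mature larva, then 26.3 and 54.1 in the competent larva (log2 fold change -3.08 ± 0.30 SE, limma adjusted p = 2.5e-05). Every earlier library was thus several-fold above both competent larva libraries. OFUS_peak_3254 (scaffold 1, 26948070 to 26948238, 169 bp wide) peaked instead in the mature larva, at 818 and 458, after 237 and 118 in the gastrula and 213 and 125 at elongation. It dropped to 40.8 and 52.8 in the competent larva (log2 fold change -3.69 ± 0.36 SE, limma adjusted p = 2.6e-05), below its embryonic values.

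OFUS_peak_5361 (scaffold 2, 10107240 to 10108248, 1009 bp wide) was another transient peak of the mature larva. It rose through 17.6 and 79.1 normalized reads in the gastrula and 92.7 and 142 at elongation to 310.2 and 299 in the mature larva, and fell to 9.62 and 42.0 (log2 fold change -3.84 ± 0.63 SE, limma adjusted p = 0.0011). The competent larva values overlap those of the gastrula. OFUS_peak_47493 (scaffold 16, 136 to 7281) was the widest of all tested peaks, 7146 bp at the very start of its scaffold, and fell from 408 and 357 to 26.3 and 33.7 (log2 fold change -3.64 ± 0.69 SE, limma adjusted p = 0.0030). In the embryo its replicates differed several-fold, with 131 and 696 in the gastrula and 158 and 974 at elongation.

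The remaining members of the 8 largest closing peaks also had discordant libraries. OFUS_peak_6237 (scaffold 2, 18348782 to 18349542, 761 bp wide) fell from 116 and 94.5 normalized reads in the mature larva to 9.60 and 16.2 (log2 fold change -2.97 ± 0.76 SE, limma adjusted p = 0.017), with gastrula values of 147 and 730.5. OFUS_peak_54753 (scaffold 21, 6571376 to 6571939, 564 bp wide) fell from 142 and 183 to 69.7 and 6.10 (log2 fold change -2.86 ± 0.76 SE, limma adjusted p = 0.020), and over the alternative settings its log2 fold change ranged from -4.51 to -1.20. Of the 16 largest peaks, 10 kept their call when any 1 larval library was left out. The calls of OFUS_peak_54567, OFUS_peak_47493 and OFUS_peak_6237 were lost in all 4 such fits, those of OFUS_peak_5361 and OFUS_peak_54753 in 3 and that of OFUS_peak_20255 in 1.

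**Figure D2:**
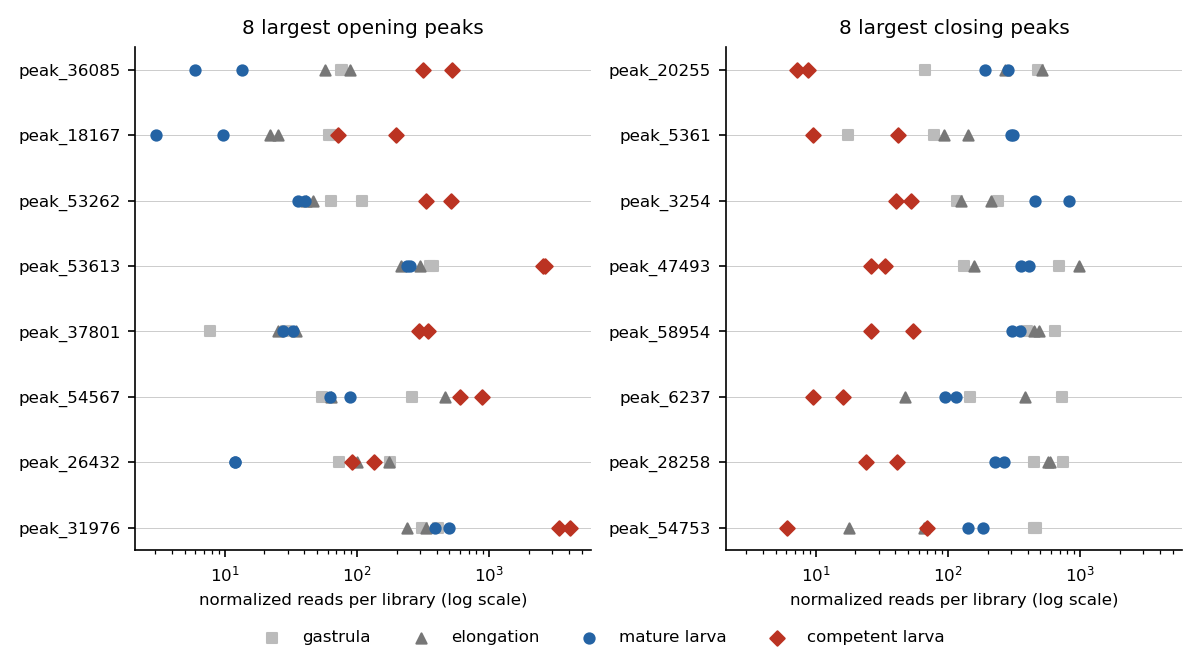
Normalized reads in each of the 8 libraries (x axis, log scale) for the 8 opening and 8 closing peaks with the largest changes, 1 point per library and 1 row per peak. Competent larva points sit to the right of both mature larva points in every opening row and to their left in every closing row, while the place of the embryonic points differs between peaks: near the mature larva (OFUS_peak_53613), among the competent larva points (OFUS_peak_26432), between the larval stages (OFUS_peak_36085) or beyond the mature larva (OFUS_peak_28258).

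Whether the competent larva went back to an embryonic state was described by placing the gastrula and elongation means on the way from the mature larva level (0) to the competent larva level (1) on the log2 scale, and using the stage that came further. A value of 0.75 or more was called a return, a value under 0.25 a new level and the rest partial. Most opening was new: 3400 opening peaks (68.7%) reached a level seen at neither embryonic stage, 862 (17.4%) were partial and 684 (13.8%) returned. Among closing peaks 967 (21.3%) returned, 1122 (24.8%) were partial and 2443 (53.9%) new. Computed on replicate 1 of each stage alone, returns made up 12.6% of opening and 23.3% of closing peaks, and on replicate 2 alone 17.2% and 23.5%. The mature and competent larva libraries enter both the call and this position, so these shares are descriptions with no test. Elongation and a gastrula replicate were sequenced on the instrument of the mature larva, so class and sequencing run cannot be told apart either. The median log2 difference of gastrula replicate 2 over replicate 1 was 0.23 in new, 0.04 in partial and 0.16 in returning opening peaks. Among new, partial and returning closing peaks it was -0.05, 0.07 and 0.07, beside 0.07 over all tested peaks. The part of the sequencing run in the classes was not tested.

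The competent larva was the stage with the highest mean in 91.2% of opening peaks, compared with 21.8% of all tested peaks, and the lowest in 86.3% of closing peaks, compared with 42.2% of all tested peaks. The call itself favours both. In 2508 opening peaks (50.7%) both embryonic means were below the mature larva mean, compared with 29.4% of all tested peaks. In 1702 closing peaks (37.6%) both embryonic means were above it, which was less than the 47.9% of all tested peaks. Conversely, both embryonic means were above the mature larva mean in 30.9% of opening peaks, which was less than the 47.9% of all tested peaks. Both were below it in 44.1% of closing peaks, compared with 29.4% of all tested peaks. Given the call, these are the opening peaks with the mature larva lowest of the 4 stages and the closing peaks with it highest.

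The classes differed in level. New opening peaks had median values of 175 and 205 normalized reads in the gastrula, 174 and 198 at elongation, 238 and 249 in the mature larva, then 534 and 505 in the competent larva, and a median width of 800 bp. Returning opening peaks were weak throughout, at 99.9 and 113 in the gastrula, 90.8 and 97.4 at elongation, 36.6 and 40.8 in the mature larva, then 112 and 87.9 in the competent larva, with a median width of 614 bp. The class rule favours the dip of these peaks in the mature larva. Of them, 51.8% lay in the quintile of tested peaks with the lowest larval mean, 153 had a larval mean below 10 normalized reads, and 68 were at 0 in both mature larva libraries. Among opening peaks with a larval mean of at least 50 normalized reads, a setting added after the values were seen, returns made up 8.10% and new peaks 74.3%. The share of opening peaks that returned depended on which libraries were used, from 3.76% without competent larva replicate 1 to 10.7% without mature larva replicate 2.

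Returning closing peaks were strong and wide. Their medians rose from 324 and 335 normalized reads in the gastrula through 397 and 397 at elongation to 629 and 611 in the mature larva, and came back to 364 and 363 in the competent larva, with a median width of 1051 bp. Only 1.96% of them lay in the lowest quintile of larval means. Their medians thus had a maximum in the mature larva, which the class rule favours. The class rule uses only the embryonic stage that came further, so a member can be higher at the other stage. OFUS_peak_54753 was such a case, as described below. New closing peaks instead fell from stage to stage, from 464 and 447 in the gastrula and 442 and 414 at elongation to 353 and 352 in the mature larva, then 192 and 200 in the competent larva. The rule also favours embryonic levels near or above the mature larva in this class. For 406 returning closing peaks the gastrula alone passed 0.75, for 117 elongation alone and for 444 both. The corresponding numbers of returning opening peaks were 207, 92 and 385. Leaving out competent larva replicate 2 lowered the returning share of closing peaks to 11.8%, and centring each library on its median raised it to 29.6%.

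**Figure D3:**
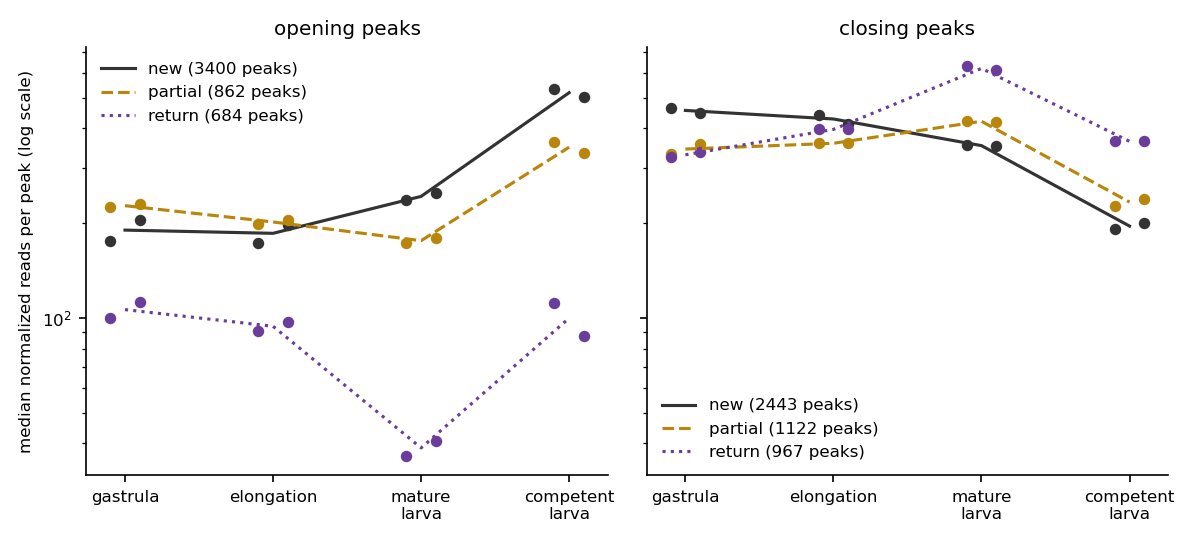
Median normalized reads per peak (y axis, log scale) at the 4 stages for new, partial and returning peaks, with 1 point per library and lines through the stage means, for opening (left) and closing peaks (right). Returning opening peaks are the lowest class and dip to 36.6 and 40.8 in the mature larva, whereas returning closing peaks crest there at 629 and 611. The class rule favours both the dip and the crest.

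The peaks with the largest changes in each class include 4 not yet described, from the returns and the partial class. Leaving out 1 larval library ended the call of OFUS_peak_53600 in 2 of 4 fits, of OFUS_peak_1022 and OFUS_peak_51633 in 3 each, and of OFUS_peak_19021 in 0. OFUS_peak_53600 (scaffold 20, 2995298 to 2997091, 1794 bp wide) dipped to 37.2 and 49.1 normalized reads in the mature larva between 160.3 and 251 in the gastrula, 235 and 168 at elongation and 264 and 141 in the competent larva (log2 fold change 2.15 ± 0.33 SE, limma adjusted p = 7.6e-04). The embryonic and competent larva values overlap completely. OFUS_peak_1022 (scaffold 1, 7339357 to 7339516, 160 bp wide) did the opposite, with 795 and 501 in the mature larva between 191 and 135 in the gastrula, 237 and 66.1 at elongation and 113 and 96.0 in the competent larva (log2 fold change -2.59 ± 0.43 SE, limma adjusted p = 0.0011). Both mature larva values were above those of all 6 other libraries. OFUS_peak_54753, described above, was counted as a closing return through elongation alone, at 65.6 and 18, since its gastrula values of 466 and 448 were above the mature larva.

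The partial class also held strong sites. OFUS_peak_19021 (scaffold 5, 17760659 to 17761821, 1163 bp wide) had 781 and 965 normalized reads in the gastrula, 1066 and 958 at elongation, 1603 and 1287 in the mature larva, then 302 and 266 in the competent larva (log2 fold change -2.34 ± 0.17 SE, limma adjusted p = 2.6e-06). It closed well below its embryonic level. OFUS_peak_51633 (scaffold 18, 6750413 to 6751346, 934 bp wide) fell from 293 and 279 in the mature larva to 64.8 and 45.3 (log2 fold change -2.38 ± 0.38 SE, limma adjusted p = 0.0010), and its place in the class rested on 1 low gastrula value, 96.6 beside 305.

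Peaks that the authors called in each library separately give another view of the same libraries. A consensus peak was taken as listed in a library when a peak of that library overlapped it. Of opening peaks, 88.9% were listed in both competent larva libraries and 30.7% in both mature larva libraries, beside 33.5% and 38.8% of all tested peaks. Closing peaks were listed in both mature larva libraries in 73.2% of cases and in both competent larva libraries in 29.2%. A total of 43.5% of opening peaks were listed in both competent larva libraries and in no mature larva library, and 22.3% of closing peaks showed the reverse, compared with 6.01% and 6.21% of all tested peaks. There were 1026 opening peaks (20.7%) listed in both competent larva libraries and in no other library of the 4 stages, out of 1512 such peaks among all tested.

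By class, 95.6% of returning opening peaks were listed in the library linked to gastrula replicate 2, compared with 65.6% of new opening peaks and 90.5% of all tested peaks. The deposited lists of gastrula and elongation carry each other's stage in their names, so which of these stages a list belongs to is uncertain. The lists linked to gastrula hold 117484 and 133993 peaks, against 93506 and 64631 for the elongation links, and 56.4% of opening peaks were listed in both of the former and 24.2% in both of the latter. In any list of these 4, 76.0% of opening and 98.4% of closing peaks were found, beside 94.0% of all tested peaks. These lists come from the libraries that also gave the calls, so the shares carry no test.

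Called peaks had a neighbour called in the same direction at a higher share than tested peaks at large, although 65.8% of opening and 73.0% of closing peaks had none directly beside them. The next tested peak along the scaffold was also opening for 19.6% of opening peaks (7.99% of all tested peaks were opening) and also closing for 15.1% of closing peaks (7.33% were closing). The next peak was called in the opposite direction for 4.87% of opening and 4.79% of closing peaks, below both backgrounds. Neighbouring peaks were separated by a median of 3996 bp. Neighbours share library, depth and base composition, and these shares were described with no test.

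The 2 directions differed in how this likeness changed with distance. For opening peaks the share was 21.7% when the next peak was under 1 kb away, 21.5% at 1 to 5 kb, 17.5% at 5 to 20 kb and 8.49% beyond 20 kb. For closing peaks it fell off sooner, from 23.9% under 1 kb to 16.5% at 1 to 5 kb, 9.13% at 5 to 20 kb and 7.33% beyond 20 kb. The next peaks of all tested peaks in the same distance classes were opening in 8.19%, 9.19%, 6.94% and 5.92% of cases, and closing in 8.72%, 7.86%, 6.52% and 4.86%. At 5 to 20 kb the excess over the background was larger for opening than for closing. Beyond 20 kb both directions still stood above the background, on 23 of 271 opening and 17 of 232 closing peaks. This difference between the directions was not tested.

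**Figure D4:**
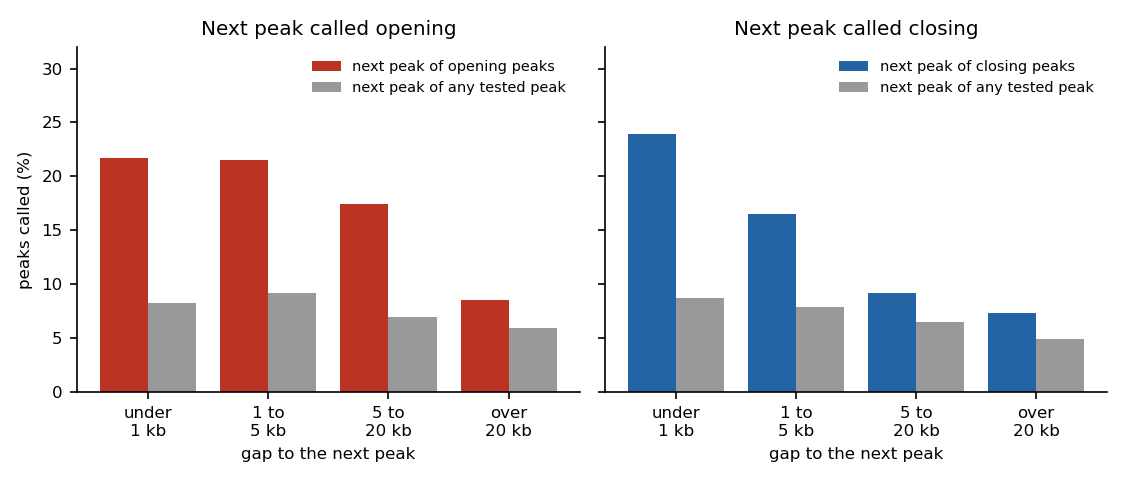
Share of next peaks called opening (left) or closing (right), in percent, by the gap to the next peak along the scaffold, after a peak called in that direction (coloured bars) and after any tested peak (grey bars). At 5 to 20 kb the share is 17.5% after opening and 9.13% after closing peaks, against 6.94% and 6.52% after any tested peak.

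In runs of 2 or more consecutive peaks lay 1690 opening peaks (34.2%) and 1225 closing peaks (27.0%), and runs of 4 or more numbered 52 and 22. The longest opening run had 7 members in 20.7 kb of scaffold 4, from 7013785 to 7034521. All 7 had more reads in both mature larva libraries than in every embryonic library, and more again in the competent larva. Its most accessible member, OFUS_peak_13589, had 125 and 215 normalized reads in the gastrula, 178 and 212 at elongation, 526 and 468 in the mature larva, then 1620 and 1775 in the competent larva (log2 fold change 1.77 ± 0.22 SE, limma adjusted p = 1.9e-04). The other 6 members, OFUS_peak_13590 to OFUS_peak_13595, had log2 fold changes of 0.94 to 1.49, and every member was new by the class rule.

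Runs of 6 opening peaks numbered 8, and the one with the largest mean change in size spanned 33.7 kb of scaffold 4, from 3003978 to 3037686, with a mean log2 fold change of 2.03. OFUS_peak_12925 (354 bp wide) led it, from 93.5 and 141 normalized reads in the mature larva to 894 and 843 in the competent larva (log2 fold change 2.91 ± 0.24 SE, limma adjusted p = 6.4e-06). OFUS_peak_12922 (1239 bp wide) held 265 and 275 in the mature larva, then 1319 and 1307 in the competent larva, with 341 and 334 in the gastrula and 396 and 307 at elongation. In no member of this run did both mature larva libraries exceed every embryonic library, unlike in the longer run.

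The longest closing run had 7 members in 15.5 kb of scaffold 4, from 843885 to 859380, with log2 fold changes of -0.65 to -1.80. Its most accessible member, OFUS_peak_12604 (1460 bp wide), went from 1771 and 1437 normalized reads in the gastrula and 1633 and 1468 at elongation to 1017 and 1079 in the mature larva, then 571 and 562 in the competent larva (log2 fold change -0.88 ± 0.15 SE, limma adjusted p = 0.0015). OFUS_peak_12600 (260 bp wide) changed most, from 313 and 207 in the mature larva to 59.9 and 87.2. A run of 6 on scaffold 13, from 10522769 to 10541042, had a mean change of 0.90 in size. Its most accessible member OFUS_peak_42296 was highest in the mature larva, at 2209 and 1874 normalized reads, and stood at 1429 and 1189 in the competent larva. Of the 13 members of these closing runs, 6 lost their call whichever larval library was left out and 2 kept it in every such fit. Of the 13 members of the opening runs, 2 lost it in all and 7 kept it in all.

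Opening was most concentrated in a window of scaffold 9, although the scaffold as a whole had 8.43% opening peaks, beside 7.99% of all tested peaks. Among 978 windows of 500 kb with at least 20 tested peaks, the median share of opening peaks was 7.06%. The window from 12500001 to 13000000 on scaffold 9 had 39 opening peaks of 77 (50.6%) and 0 closing peaks. The next windows had 13 of 43 (30.2%, scaffold 32 from 1000001) and 13 of 48 (27.1%, scaffold 3 from 18500001). In the scaffold 9 window 67 of the 77 peaks had a log2 fold change above 0, with a median of 0.77, where the median window had -0.08.

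With its ends set after the values were seen, at the outermost opening peaks with no more than 3 uncalled peaks between neighbours, the stretch ran over 355 kb from 12441566 to 12797049. It held 74 tested peaks, of which 48 opened (64.9%), 0 closed and 69 had a log2 fold change above 0. No peak of the stretch closed at an unadjusted limma p under 0.05 either (count 0), edgeR called 51 opening and 0 closing peaks there, and DESeq2 50 and 0. The stretch was picked by its calls, so these counts carry no test. On the rest of the scaffold 207 of 2950 peaks opened (7.02%) and 241 closed (8.17%). The 48 opening peaks of the stretch had medians of 226 and 272 normalized reads in the gastrula, 213 and 212 at elongation, 220 and 258 in the mature larva, then 567 and 508 in the competent larva. Their medians were thus about flat over the first 3 stages, and the median rise to the competent larva was 2.35-fold. Single members, picked after the values were seen, differed. OFUS_peak_32817 rose from 588 and 562 normalized reads in the gastrula to 848 and 947 in the mature larva. OFUS_peak_32862 fell from 583 and 667 to 351 and 422 between the same stages. By class 41 of the 48 were new, 5 partial and 2 returns, and the competent larva was the highest of the 4 stages in all 48.

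The opening peaks of the stretch were spread through its length, and their median width was 860 bp, beside 829 bp for opening peaks on the rest of the scaffold. OFUS_peak_32853 (12694413 to 12694824) had the largest change, from 47.8 and 110 normalized reads in the mature larva to 366 and 248 (log2 fold change 2.04 ± 0.50 SE, limma adjusted p = 0.013). OFUS_peak_32826 (12575357 to 12576111) rose from 122 and 181 to 631 and 569 (log2 fold change 2.01 ± 0.29 SE, limma adjusted p = 5.2e-04), and OFUS_peak_32802 (12461755 to 12464000, 2246 bp wide) from 360.2 and 498 to 1337 and 1234 (log2 fold change 1.60 ± 0.21 SE, limma adjusted p = 3.0e-04). These 3 were chosen after their values were seen. Gastrula replicate 2 exceeded replicate 1 by a median log2 of 0.27 over the 48 opening peaks, beside 0.22 over the opening peaks of the rest of the scaffold. The window had 7 opening peaks without mature larva replicate 1, when 7 windows had a higher share, and 22 without replicate 2 of the mature larva, 12 and 28 when competent larva replicate 1 or 2 was dropped, and no window then had a higher share. It held 0 closing peaks in each of these fits, and its median log2 fold change was 0.61 to 0.83.

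**Figure D5:**
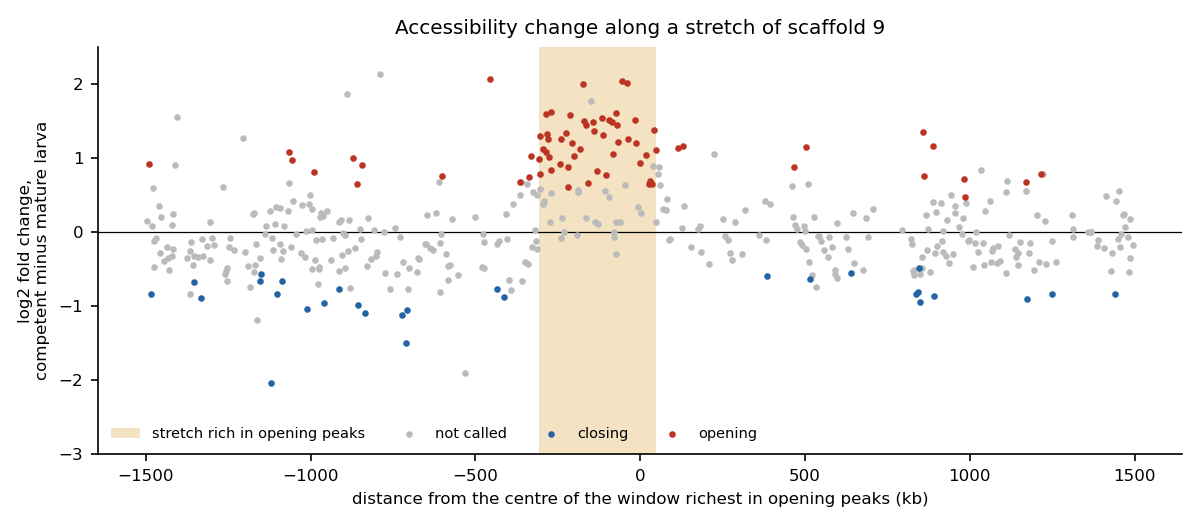
Log2 fold change from mature to competent larva (y axis) of the tested peaks within 1500 kb of the centre of the window with the highest share of opening peaks on scaffold 9 (x axis, distance in kb), with 1 point per peak coloured by call and the 355 kb stretch shaded. Inside the shading 48 of 74 peaks opened and 0 closed, and outside it opening, closing and uncalled peaks are mixed around 0.

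Closing had no comparable concentration. The windows with the highest closing shares had 13 of 55 peaks (23.6%, scaffold 5 from 15500001), 11 of 48 (22.9%, scaffold 34 from 1000001) and 5 of 22 (22.7%, scaffold 8 from 23500001), against a median of 6.52%. Their median log2 fold changes were -0.35, -0.33 and -0.28. More than 20% of peaks opened in 25 windows and more than 20% closed in 6. Among the 33 scaffolds with at least 200 tested peaks, the opening share ran from 4.06% on scaffold 29 to 15.7% on scaffold 32 and the closing share from 4.06% on scaffold 24 to 12.3% on scaffold 34. Over scaffolds 1 to 9 the shares varied little, from 7.18% to 9.41% for opening and from 5.66% to 8.59% for closing.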

How the data were processed

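ATAC-seq of whole animals was compared between 2 mature and 2 competent larva libraries, with 2 gastrula and 2 elongation libraries as earlier stages. The authors trimmed reads to a common length, mapped them with NextGenMap, removed duplicates, shifted reads for Tn5, called peaks with MACS2 2.2.7.1 and built a consensus set with DiffBind. The deposited table holds a signal per consensus peak, reads normalized with DESeq2 by the authors (version 1.30.1 in the submitters' processing notes). The deposited single-library peak lists give a fold enrichment ratio and a −log10 q-value per peak, as written by the authors' MACS2. 2 signal columns of samples outside the series were not used, nor was the expression matrix, which has no mature larva here. The study also profiled the blastula by ATAC-seq, and no blastula level entered the new, partial and return classes.

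Peaks at 0 in all 8 libraries were dropped, and limma 3.58.1 (R 4.3.3) with a mean trend was fitted on log2(value + 1) over the 8 libraries with stage as the factor, two-sided, at a Benjamini-Hochberg adjusted p under 0.05 without a fold threshold. Fold changes are on that scale and understate changes of low peaks. Fits were tested on simulated data before use. Values were approximately whole multiples of 1 read only at low levels (10.9 to 45.2% of all values within 0.1 of a whole read), so the count test planned on recovered reads was not run as planned. edgeR 4.0.16 and DESeq2 1.42.0 on approximate reads were added after the data were seen. Lists were compared with bedtools 2.31.1 at an overlap of 1 bp. Intervals behind the comparisons of settings cover counting error only.

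Members, lists and tests were chosen with earlier results of these data known. Named peaks were the 8 largest opening and closing changes and the 3 largest per class among calls with separate replicates and a larval mean of at least 50, the members of the 2 longest runs per direction, and the 3 windows of 500 kb with the highest share per direction.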

Additional observations from a re-analysis of the deposited data

How the results depend on the processing

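The 9478 calls and the 52.2% that opened were recomputed under every alternative chosen at the outset except the count test on recovered reads. No called peak that could be tested changed sign in any of 15 settings, and the opened share stayed above 50% in all. The count fell to 4945 with no peak dropped, 4871 with only the 4 larval libraries, and 3946 with a log2 fold change above 1 in size, and leaving out 1 library gave 1152 to 3931. It was 10902 with edgeR and 9443 with DESeq2. The opened share was 53.5% with pseudocount 10, 54.2% with no peak dropped, 50.4% with a mean of at least 10, 58.3% with quantile normalization, 59.3% with median centring, 61.6% with only the larval libraries, 68.4% with the fold threshold and 54.9 to 74.5% leaving out 1 library. A fit with a replicate block called 11198 peaks, 50.5% of them opening. It gave 22.8% closing returns and same-direction neighbours of 21.1% for opening and 17.3% for closing peaks. Deviations of same-numbered mature and competent larva libraries from their stage means correlated at -0.003, and those of the other stage pairs at 0.01 to 0.24. With not every pair above 0.1 and no label tying the numbers to a shared batch, the numbers were not taken to pair the libraries.

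Opening peaks at an embryonic level made up 8.66% with no peak dropped, 9.31% with quantile normalization, 8.30% with only the larval libraries, 20.1% with 1 cut-off at 0.5, 9.64% with elongation alone, 9.40% with DESeq2, 8.10% at a larval mean of at least 50, and 3.76 to 10.7% leaving out 1 library. New opening peaks made up 74.2%, 76.0%, 77.3%, 79.9% and 77.6% in the first 5 of these settings, 74.8% with median centring, 74.3% at the larval mean of at least 50, and 71.1 to 83.3% leaving out 1 library. Closing peaks at an embryonic level made up 21.98% with pseudocount 10, 24.4% with quantile normalization, 29.6% with median centring, 26.8% with only the larval libraries, 32.3% with 1 cut-off, 18.8% with gastrula alone, 12.4% with elongation alone, 23.1% with edgeR, 23.7% with DESeq2, and 11.8 to 19.8% leaving out 1 library. New closing peaks made up 44.2% with median centring, 47.4% with only the larval libraries, 67.7% with 1 cut-off, 61.4% with gastrula alone, 64.3% with elongation alone, 51.8% with DESeq2, and 50.9 to 62.5% leaving out 1 library.

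The median width of opening peaks was 806 bp with no peak dropped, 808 bp with only the larval libraries, 620 bp with the fold threshold, 775 bp with DESeq2, and 814 to 902 bp leaving out 1 library. For closing peaks it was 941 bp with pseudocount 10, 1006 bp with no peak dropped, 860 bp with a mean of at least 10, 1051 bp with quantile normalization, 1056 bp with only the larval libraries, 545 bp with the fold threshold, 878 bp with edgeR, 958 bp with DESeq2, and 784 to 1056 bp leaving out 1 library. The order of the medians, closing wider than opening, turned with the fold threshold and without competent larva replicate 2.

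Same-direction neighbours of opening peaks were 14.5% with no peak dropped, 21.5% with a mean of at least 10, 16.9% with quantile normalization, 21.2% with median centring, 15.0% with only the larval libraries, 12.7% with the fold threshold, 21.8% with edgeR, and 8.97 to 12.1% leaving out 1 library. For closing peaks they were 13.5% with pseudocount 10, 8.71% with no peak dropped, 16.7% with a mean of at least 10, 10.8% with quantile normalization, 13.7% with median centring, 7.18% with only the larval libraries, 8.20% with the fold threshold, 16.9% with edgeR, and 5.52 to 7.34% leaving out 1 library. Divided by the share of all tested peaks called in that direction in the same setting, these were 2.31 to 6.47 for opening and 1.90 to 12.3 for closing, against 2.45 and 2.06 in the report.

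Opening peaks listed in both competent larva libraries were 47.3% when 50% of a peak had to be covered and 65.8% for listed peaks with a −log10 q of at least 5, and closing peaks listed in both mature larva libraries 46.2% and 56.3%. In both elongation-linked lists they were 2.75% and 13.6% for opening and 10.0% and 43.8% for closing peaks, and 56.4% and 92.9% with the gastrula and elongation lists exchanged. Of the 16 largest peaks, 9 kept their call in all 14 settings tried on them. Where values moved, the cause was not tested. Leaving out a library changed both the number and the identity of the samples. With 2 libraries per stage and 7957246 reads in the shallowest larval library, changes of low peaks are the least certain.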
